A study of Mus musculus with 8 samples.

Results

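The SLAM family genes described here were the 7 rows of the count table named Slamf1, Slamf6, Slamf7, Ly9, Cd84, Cd48 and Sh2d1a, of 27594 genes in all. They were followed in RNA-seq of resting Treg cells (rTreg, sorted as CD4+YFP+CD44lowCD62Lhigh) and activated Treg cells (aTreg, sorted as CD4+YFP+CD44highCD62Llow) from C57BL/6 mice of 6 to 8 weeks. WT mice carried Foxp3-YFP-Cre alone, and Foxp1 cKO mice (cKO below) carried Foxp3-YFP-Cre with Foxp1fl/fl, so that Cre acted in cells that express Foxp3 and both genotypes held the Cre allele. Spleen and peripheral lymph nodes were used together. There were 8 libraries, with 2 replicates in each of the 4 groups. The labels do not say whether replicates came from separate mice or how many mice went into a library, so p-values measure only the spread between these samples.

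SLAM receptors are immunoglobulin-like receptors of lymphocytes. Most bind a copy of themselves on a neighbouring cell, and their tyrosine switch motifs recruit the small adaptor SAP, the product of Sh2d1a, which links them to the kinase Fyn. The pathway is known for sustaining T cell and B cell contacts in germinal centres and for the selection of innate-like T cells. Cd48 differs from the other receptors in being held in the membrane by a lipid anchor, and it serves as a ligand of CD2 and 2B4.

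In GRCm38 with the GENCODE M21 annotation, a span of 364.5 kb on chromosome 1 held 7 whole protein-coding genes, with Gm10521 between Cd84 and Slamf6. The other 6 were members. They were, in order, Ly9 (ENSMUSG00000004707, chr1:171588624-171607410, minus strand), Slamf7 (ENSMUSG00000038179, chr1:171632403-171653035, minus strand), Cd48 (ENSMUSG00000015355, chr1:171682009-171705258), Slamf1 (ENSMUSG00000015316, chr1:171767127-171801184), Cd84 (ENSMUSG00000038147, chr1:171839697-171890718) and Slamf6 (ENSMUSG00000015314, chr1:171917515-171953170), the last 4 on the plus strand. Sh2d1a (ENSMUSG00000005696) lay apart, at chrX:42502453-42529330 on the plus strand. The merged exons ran from 1189 bases in Cd48 to 10832 bases in Slamf6. Ly9 lies inside the span of Cd244 on the opposite strand, and 0 of its 3307 exonic bases overlap an exon of that gene. Cd244, not a member, extends past the start of the 364.5 kb and was therefore not among the 7 whole genes.

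Promoter sequences were found in RefSeq (GRCm38.p6) for 5 of the 7 members, Slamf1, Slamf6, Slamf7, Cd48 and Cd84. Those of the members that rose in cKO rTreg cells are printed for the 250 bases before the start of the RefSeq transcript, 5′ to 3′ on the plus strand, with the core TGTTT of forkhead recognition sequences in capitals on either strand. The Slamf6 promoter is chr1:171917212-171917461 and the Slamf1 promoter is chr1:171766882-171767131.
Slamf6: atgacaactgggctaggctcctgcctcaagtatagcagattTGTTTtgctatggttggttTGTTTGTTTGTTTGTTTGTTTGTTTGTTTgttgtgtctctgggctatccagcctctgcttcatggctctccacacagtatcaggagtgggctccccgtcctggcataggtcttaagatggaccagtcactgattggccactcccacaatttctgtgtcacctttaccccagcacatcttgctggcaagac
Slamf1: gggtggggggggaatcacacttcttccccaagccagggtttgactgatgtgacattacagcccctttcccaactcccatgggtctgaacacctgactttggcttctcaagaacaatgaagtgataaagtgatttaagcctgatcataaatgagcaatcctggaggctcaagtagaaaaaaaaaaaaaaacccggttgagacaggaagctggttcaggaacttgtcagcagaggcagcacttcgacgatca
The longer forkhead motifs TGTTTAC and TATTTAC, searched on both strands, were in 0 of the 5 promoters and in 5.76% of 32851 RefSeq promoters of the same length. TGTTT had 8 matches in the Slamf6 promoter, most of them in one tandem repeat, 1 each in Slamf7, Cd48 and Cd84, and 0 in Slamf1. At least 1 match was in 46.4% of all promoters and at least 8 in 0.0822%. The repeat was noticed after the sequence was seen, and a match of letters is not a bound site.

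The libraries held between 6373170 and 15268623 counts on genes, and 3 counts, taken as the detection floor, equalled 0.196 to 0.471 CPM (counts scaled to a common library total). All 7 members were among the 14540 genes that passed the filter on low counts. The Treg markers Foxp3, Il2ra, Ctla4, Ikzf2, Cd4 and Cd3e summed to 2790 to 4320 CPM, and Cd44 was higher in aTreg cells, as sorted. Foxp1 itself was lower in cKO than in WT aTreg cells (log2 fold change -1.03, adjusted p = 0.00194). In rTreg cells its whole-gene count was at 353.5 and 383.8 CPM in WT and 342 and 337.8 CPM in cKO. The libraries did not overlap, but this small difference did not pass the test (-0.12, adjusted p = 0.46). Foxp1 therefore does not check the rTreg labels. The replicate numbers also differed in sex, Xist having 15098 to 21822 counts where the number was 2 and 3 or fewer where it was 1. In bulk samples, fewer cells of a type and less RNA per cell cannot be told apart.

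Per length of transcript, in FPKM (counts scaled by exon length and library total), Cd48 was the most abundant member in WT rTreg cells. Cd48 had 83.6 ± 0.973 FPKM, Ly9 50.9 ± 3.85, Cd84 29.8 ± 3.88 and Slamf6 17.8 ± 1.31 FPKM (SD, n = 2). Slamf1 followed at 8.31 ± 0.376, Sh2d1a at 6.18 ± 0.132 and Slamf7 at 0.385 ± 0.143 FPKM. No neighbours in this order overlapped between libraries. The order changed at a pair of places in the other groups. Slamf6 reached Cd84 in cKO rTreg cells, at 31.7 and 36.0 FPKM against 28.3 to 37.9 FPKM, and in cKO aTreg cells, at 32.2 and 34.0 against 32.6 to 36.8 FPKM, with overlapping libraries. Sh2d1a passed Slamf1 in aTreg cells, with 20.4 ± 1.29 against 14.6 ± 0.551 FPKM in WT and 23.2 ± 1.02 against 14.2 ± 0.615 FPKM in cKO cells (SD, n = 2).

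**Figure D1:**
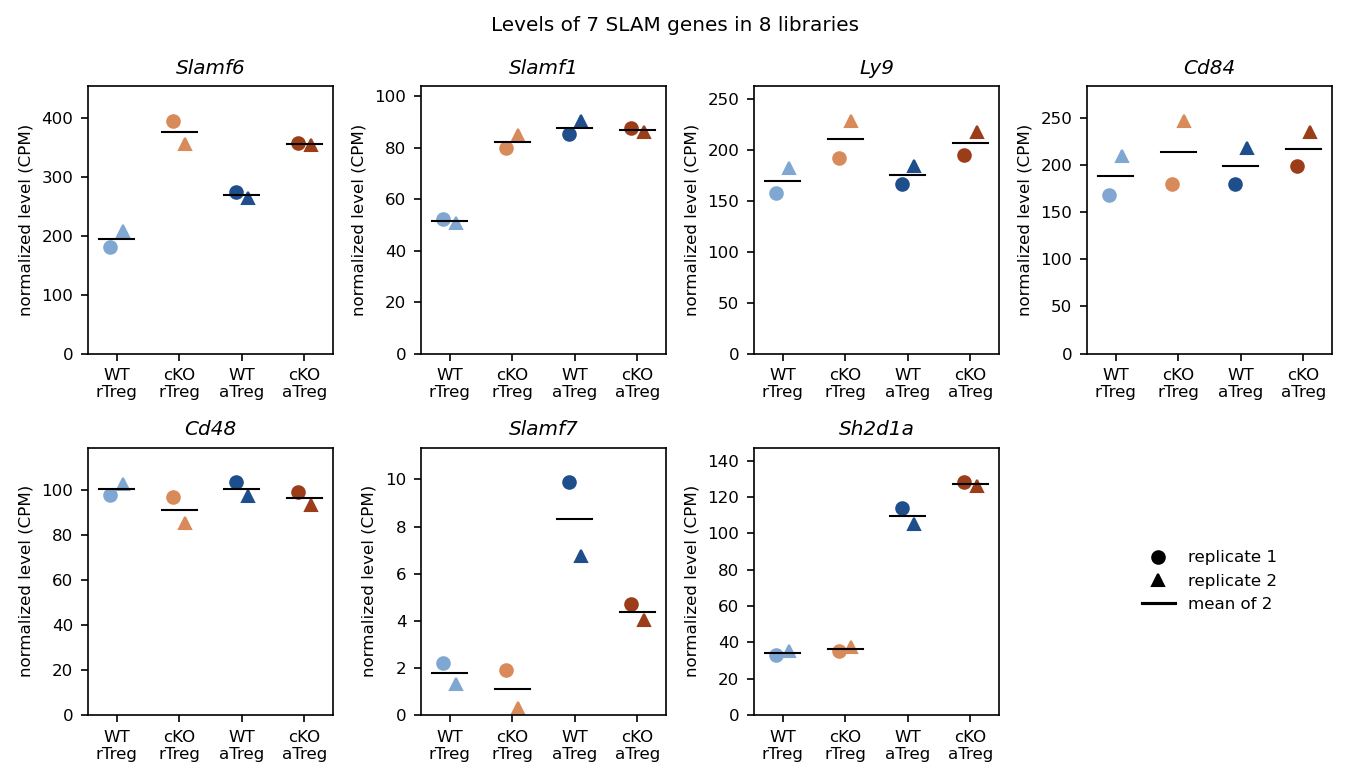
Normalized levels in CPM (vertical axes, linear from 0) of the 7 SLAM genes in WT and Foxp1 cKO rTreg and aTreg cells; circles are replicate 1, triangles replicate 2 and bars the mean of 2. Slamf6 and Slamf1 were lowest in both WT rTreg libraries, and Sh2d1a was at 105 to 128 CPM in the 4 aTreg libraries against 33.3 to 37.7 CPM in the 4 rTreg libraries.

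The first comparison was between cKO and WT resting Treg cells. The study reported enlarged spleens and lymph nodes, more activated conventional T cells and fewer rTreg cells in cKO mice. The part of these changes in the genotype differences was not tested. Slamf6 and Slamf1, both self-binding receptors with SAP-recruiting motifs, rose in cKO rTreg cells. Slamf6 had 181.6 and 208.4 CPM in WT and 395.9 and 357.3 CPM in cKO rTreg cells. Slamf1 had 52.4 and 50.8 CPM in WT and 79.9 and 84.8 CPM in cKO rTreg cells. Both cKO libraries lay above both WT libraries for each gene. The change was 1.93-fold for Slamf6 (log2 fold change 0.95, standard error 0.0828, adjusted p = 0.000887) and 1.6-fold for Slamf1 (0.68, standard error 0.0666, adjusted p = 0.0014; quasi-likelihood test of edgeR, adjusted by Benjamini-Hochberg over all genes tested, as for every adjusted p here). Within the replicate pairs the log2 differences were 1.12 and 0.78 for Slamf6 and 0.61 and 0.74 for Slamf1. A gene was called between genotypes if its adjusted p was under 0.05 and its fold change 1.5 or more, which 2 of the 7 members met as higher in cKO, and 2.90% of all genes tested were so called. The median log2 fold change was 0.17 over the members and 0.0029 over all genes tested.

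Ly9, the self-binding receptor also known as CD229, passed the adjusted p but not the fold threshold. It had 158.2 and 182.1 CPM in WT and 192.2 and 228.8 CPM in cKO rTreg cells, a 1.24-fold difference (log2 fold change 0.31, adjusted p = 0.0171). With it, 3 of the 7 members had an adjusted p under 0.05 against 12.0% of all genes tested in either direction. The pass of Ly9 was lost without the replicate block (adjusted p = 0.264), on unfiltered log2(FPKM + 1) (0.0888) and with any 1 of the 4 rTreg libraries left out (0.0661 to 0.175). Cd84, another self-binding receptor, had 168.3 and 209.3 CPM in WT and 180.3 and 246.9 CPM in cKO rTreg cells. These groups overlapped, and the difference did not pass the test (log2 fold change 0.17, adjusted p = 0.14).

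Cd48 was at 97.9 and 102.9 CPM in WT and 96.7 and 85.5 CPM in cKO rTreg cells (log2 fold change -0.15, adjusted p = 0.242). The adaptor gene Sh2d1a was at 33.3 and 35.4 CPM in WT and 35.4 and 37.7 CPM in cKO rTreg cells (0.095, adjusted p = 0.486). Neither difference passed the test. Slamf7, which signals through the SAP relative EAT-2, had 24 and 17 counts in WT and 12 and 4 counts in cKO rTreg cells, and the lowest of these libraries was next to the floor of 3 counts. Its log2 fold change of -0.99 had a standard error of 0.55 (adjusted p = 0.29), and it did not pass the test. It rested on the cKO libraries, since it was -2.32 without cKO rTreg replicate 1 and -0.095 without cKO rTreg replicate 2.

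Some transcripts of other cells moved beside Slamf6 and Slamf1. The 8 B cell markers summed to 8.66 and 9.35 CPM in WT and 11.6 and 10.4 CPM in cKO rTreg cells, and 1 of the 4 that were tested was called higher, Cd22, with 4 and 3 counts in WT and 9 and 9 in cKO rTreg cells (log2 fold change 1.65, adjusted p = 0.0487; not called with limma-voom or DESeq2). The other tested B cell markers were not called, with log2 fold changes of 0.28 for Cd79a, -0.016 for Cd79b and 0.16 for Pax5. The B cell marker Ms4a1 was at or near 0 in every library, with 0 to 4 counts. The 3 plasma cell markers summed to 91.5 and 79.8 CPM in WT and 118 and 101 CPM in cKO rTreg cells. Among them Jchain, the joining chain of secreted antibodies, was called higher by edgeR, limma-voom and DESeq2, with 20 and 4 counts in WT and 46 and 66 in cKO rTreg cells (log2 fold change 2.64, adjusted p = 0.0221), and the immunoglobulin gene Ighg1 had 0 and 4 counts in WT and 82 and 203 in cKO rTreg cells. Ighg1 is on none of the marker lists. The plasma cell marker Sdc1 went the other way near the floor, with 2 and 1 counts in WT and 1 and 0 in cKO rTreg cells. Its log2 fold change was -0.92, and it was not called. Xbp1, also a plasma cell marker, was higher at less than 1.5-fold (0.29, adjusted p = 0.0323). The 7 measured myeloid markers were at 5.97 to 10.9 CPM over all 8 libraries, with 0 to 4 counts of Adgre1. The 4 NK cell markers were at 1.96 to 8.40 CPM, with 0 to 15 counts of Ncr1. The CD8 T cell markers Cd8a and Cd8b1 were at 6.11 to 16.7 CPM, with 1 to 10 counts of Cd8a. The myeloid marker Lyz2 had 10 and 3 counts in WT and 24 and 13 in cKO rTreg cells. Itgam, also myeloid, had 2 and 4 counts against 8 and 9, and the NK cell marker Klrb1c 0 and 1 against 3 and 5. The log2 fold change was -0.34 for the myeloid marker Cd68 and 0.22 for the NK cell marker Eomes. No tested marker of the myeloid, NK and CD8 T cell lists passed the adjusted p in this comparison. Cd44, which encodes a marker of the sort, had 35.1 and 45.3 CPM in WT and 29.6 and 30.3 CPM in cKO rTreg cells. The part of any of these in the SLAM gene differences was not tested.

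In aTreg cells, 0 of the 7 members were called between genotypes with edgeR, limma-voom or DESeq2, while 4.03% of all genes tested were called in either direction and 4 members had an unadjusted p under 0.05, as did 23.3% of all genes tested. Slamf6 was the member with an adjusted p under 0.05, which 6.88% of all genes tested had. It had 274.2 and 264.7 CPM in WT and 357.6 and 354.7 CPM in cKO aTreg cells, without overlap, a 1.32-fold difference (log2 fold change 0.40, standard error 0.0817, adjusted p = 0.0294) that stayed under the 1.5-fold threshold. This pass was lost without the replicate block (adjusted p = 0.147), under the FPKM settings (0.1 to 0.187) and with any 1 of the 4 aTreg libraries left out (0.0681 to 0.182). Ly9 had 166.8 and 184.2 CPM in WT and 195.7 and 217.7 CPM in cKO aTreg cells, and its difference just missed the test (0.24, adjusted p = 0.0527).

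Slamf1 had 85.1 and 90.4 CPM in WT and 87.6 and 86.3 CPM in cKO aTreg cells. The genotypes overlapped (log2 fold change -0.015, adjusted p = 0.919), and the 95% confidence interval of the difference ran from -0.16 to 0.13. Sh2d1a had 114 and 104.9 CPM in WT and 128 and 125.9 CPM in cKO aTreg cells (0.22, adjusted p = 0.112). Slamf7 had 90 and 105 counts in WT and 56 and 56 in cKO aTreg cells (-0.90, standard error 0.342, adjusted p = 0.163). It was called lower when no filter on low counts was applied (-0.89, adjusted p = 0.0382). Cd84 (0.12, adjusted p = 0.311) and Cd48 (-0.058, adjusted p = 0.691) did not pass the test. The median log2 fold change was 0.13 over the members and 0.0019 over all genes tested.

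**Figure D2:**
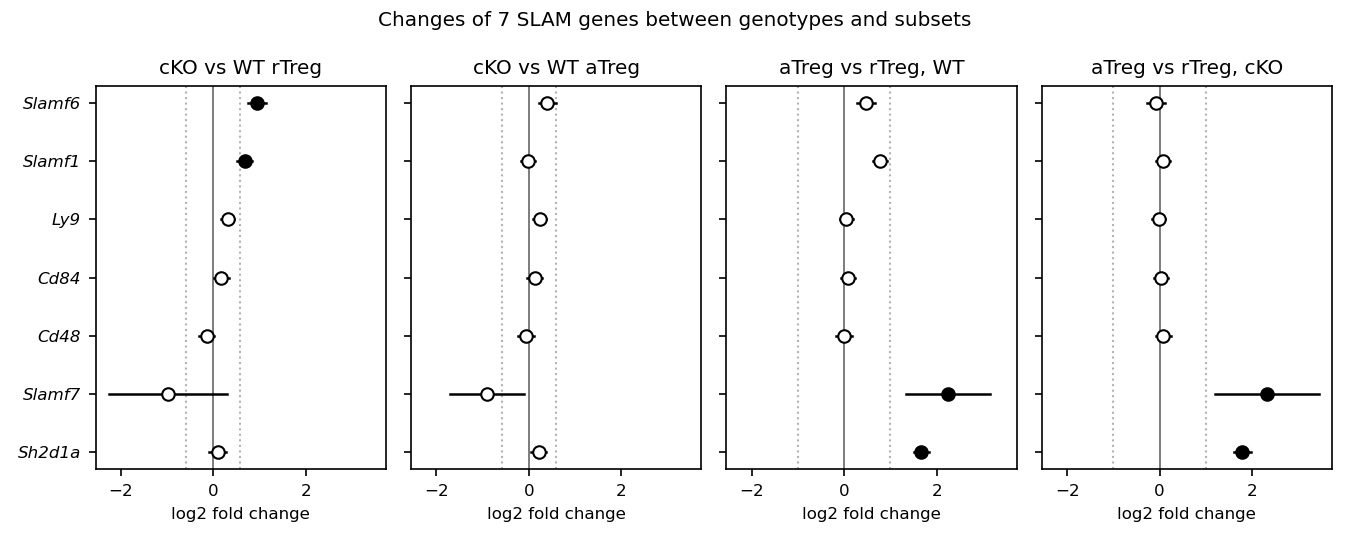
Log2 fold change (horizontal axes) of each SLAM gene in the 4 comparisons; points are edgeR estimates, lines their 95% confidence intervals, filled points called genes, and dotted lines the fold threshold (1.5-fold between genotypes, 2-fold between subsets). Slamf6 and Slamf1 were called in rTreg cells between genotypes, and Sh2d1a and Slamf7 between subsets in both genotypes.

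Between subsets, aTreg cells had more Sh2d1a and Slamf7 than rTreg cells in both genotypes. In WT cells, Sh2d1a went from 33.3 and 35.4 CPM in rTreg to 114 and 104.9 CPM in aTreg, a 3.18-fold rise (log2 fold change 1.67, standard error 0.075, adjusted p = 8.63e-06). In cKO cells it went from 35.4 and 37.7 CPM to 128 and 125.9 CPM, a 3.46-fold rise (1.79, standard error 0.0758, adjusted p = 4.44e-06). All aTreg libraries were above all rTreg libraries. Sh2d1a is on the X chromosome, and its levels in the replicates of a group, which differ in sex, were within 10 CPM of each other.

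Slamf7 rose 4.72-fold in WT cells, from 2.21 and 1.34 CPM to 9.88 and 6.73 CPM (log2 fold change 2.24, standard error 0.389, adjusted p = 0.00378). In cKO cells it rose 4.99-fold, from 1.91 and 0.289 CPM to 4.70 and 4.03 CPM (2.32, standard error 0.483, adjusted p = 0.0067), and without the replicate block this call was lost (2.24, adjusted p = 0.0574). Called between subsets, at an adjusted p under 0.05 and at least 2-fold higher in aTreg cells, were 2 of 7 members in WT against 9.50% of all genes tested, and 2 of 7 members in cKO against 11.3%.

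Some markers of other cells were also higher in aTreg cells, and some were lower. The B cell markers summed to 8.66 to 11.6 CPM in the rTreg and 34.2 to 39.4 CPM in the aTreg libraries, and 3 of the 4 tested were called higher in each genotype (2 with DESeq2). They were Cd22, with 3 to 9 counts in rTreg and 181 to 216 in aTreg libraries, Cd79b, with 33 to 68 and 144 to 247 counts, and Pax5, with 0 to 2 and 8 to 15 counts, whereas Ms4a1 stayed at 0 to 4 counts. Of the NK cell markers, 1 of the 2 tested was called higher in each genotype, Klrb1c, with 0 to 5 counts in rTreg and 25 to 41 in aTreg libraries. The other, Eomes, was not called (log2 fold change -0.054 in WT and -0.10 in cKO). The plasma cell marker Sdc1, with 0 to 2 and 3 to 14 counts, was called in cKO cells by edgeR but not by DESeq2. Jchain (1.255 in WT and -0.018 in cKO) and Xbp1 (0.0051 and -0.24) were not called by edgeR. Lower in aTreg cells was the B cell marker Cd79a (log2 fold change -0.36 in WT, -0.66 in cKO, adjusted p = 0.316 and 0.07). So was the myeloid marker Cd68 (-0.65 and -0.72, adjusted p = 0.114 and 0.0911). The other tested myeloid markers were Lyz2 (1.56 in WT and 0.36 in cKO) and Itgam (0.90 and -0.25), and neither passed the adjusted p. Cd8b1 was lower with an adjusted p under 0.05 but less than 2-fold (-0.64 and -0.95, adjusted p = 0.012 and 0.00168). The part of other cells in the subset differences, Slamf7 at 4.03 to 9.88 CPM in aTreg cells included, was not tested.

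The receptors that rose in cKO rTreg cells passed the adjusted p between subsets in WT cells, at less than 2-fold. Slamf1 was 1.7-fold higher in WT aTreg than in WT rTreg cells (log2 fold change 0.77, standard error 0.0657, adjusted p = 0.000133) and Slamf6 1.38-fold higher (0.47, standard error 0.0823, adjusted p = 0.0041). With them 4 of 7 members passed in WT, where 31.9% of all genes tested did. In cKO cells 2 of 7 members passed, where 40.1% of all genes tested did. There the log2 difference between subsets was 0.077 for Slamf1 (95% confidence interval -0.074 to 0.23, adjusted p = 0.385) and -0.079 for Slamf6 (-0.27 to 0.11, adjusted p = 0.478). Ly9, Cd84 and Cd48 stayed between -0.024 and 0.083 on the log2 scale between subsets in both genotypes, and none passed the test. The median log2 fold change between subsets was 0.47 over the members and -0.0046 over all genes in WT, and 0.077 against -0.018 in cKO cells.

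Side by side, the level of Slamf1 in cKO rTreg cells (79.9 and 84.8 CPM) was a little under that in WT aTreg cells (85.1 and 90.4 CPM), and Slamf6 in cKO rTreg cells (395.9 and 357.3 CPM) was above that in WT aTreg cells (274.2 and 264.7 CPM) and around that in cKO aTreg cells (357.6 and 354.7 CPM). The genotype and subset comparisons share libraries, and these levels are a description.

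Whether the genotype effect itself differed between subsets was tested as an interaction term. For Slamf1 the effect in aTreg minus that in rTreg cells was -0.69 on the log2 scale (standard error 0.0922, 95% confidence interval -0.90 to -0.48, adjusted p = 0.0322). This was 1 of 7 members, against 0.330% of all genes tested. The pairs gave -0.57 and -0.80. Without the replicate block the adjusted p was 0.248, and with 1 library left out it was above 0.05 in 7 of the 8 cases (0.065 to 0.223), the exception being the fit without WT aTreg replicate 1. For Slamf6 the difference was -0.55 (standard error 0.116, adjusted p = 0.102), which did not pass the test in the main design but did with DESeq2 (-0.53, adjusted p = 0.0134). For the other 5 members it did not pass, with log2 differences from -0.070 for Ly9 to 0.12 for Sh2d1a. The median was -0.048 over the members and -0.012 over all genes tested.

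The neighbourhood of the 6 linked members was described out to 500 kb on either side, which held 47 protein-coding genes. Of the 41 that are not members and were in the table, 26 were tested. Between genotypes in rTreg cells 0 of these 26 were called with edgeR, limma-voom or DESeq2, against 5.60% of all genes tested with edgeR, and 8 had an unadjusted p under 0.05, against 28.5%. In aTreg cells 0 were called with the same tools, against 4.03%, and 6 had an unadjusted p under 0.05, against 23.3%. In rTreg cells 15 of the 26 were within 0.2 of 0 on the log2 scale, and their median was -0.0061. Between subsets in WT cells 1 of the 26 was called higher (Cfap126), against 9.50% of all genes tested, and 0 lower, against 2.83%. In cKO cells 1 was called higher (Cfap126), against 11.3%, and 1 lower (Vangl2), against 4.39%.

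**Figure D3:**
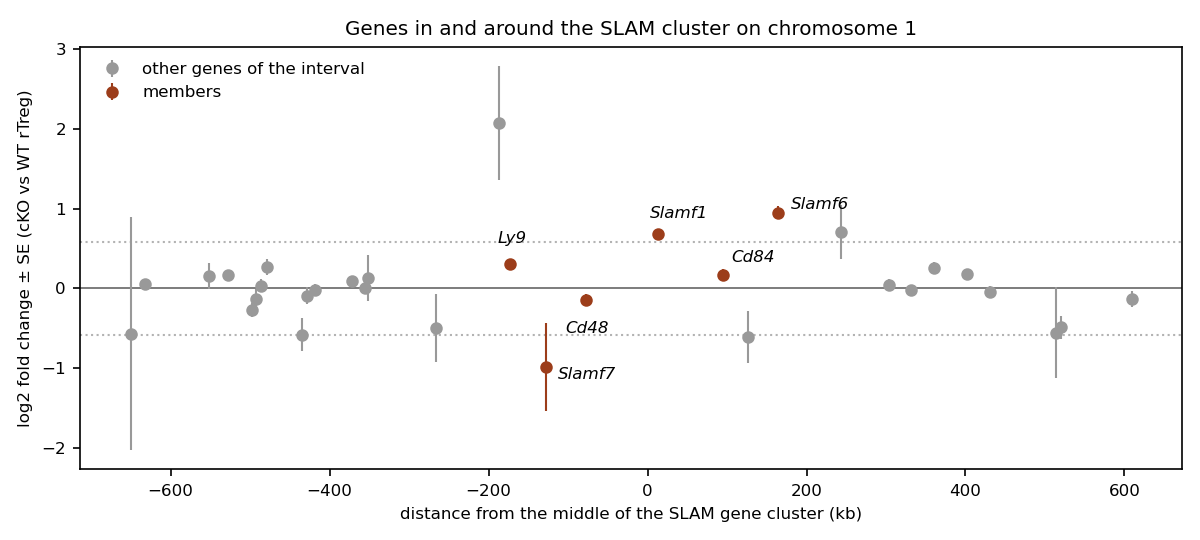
Log2 fold change between cKO and WT rTreg cells (vertical axis, points with standard error) of the genes in and around the SLAM cluster, placed by distance in kb from its middle (horizontal axis); brown points are the 6 linked SLAM genes and grey points the 26 other genes tested, with dotted lines at 1.5-fold. Slamf6 and Slamf1 lay at 0.95 and 0.68, with Cd84 between them at 0.17, and the grey point at 2.07 is Cd244, with at most 10 counts in these 4 libraries.

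The other SLAM genes were scarce. Cd244, which encodes the CD48 receptor 2B4, had 1 and 2 counts in WT rTreg, 2 and 10 in cKO rTreg, 3 and 5 in WT aTreg and 11 and 13 in cKO aTreg cells. Neither genotype difference passed the test (adjusted p = 0.105 in rTreg and 0.128 in aTreg cells). Slamf8, Slamf9 and the EAT-2-related Sh2d1b2 had at most 3 counts in any library, at the floor.

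A list of 31 ligands and signaling partners, with CD2, Src family kinases, phosphatases, SAP and EAT-2 effectors and the PKCθ branch, was tested in full. Between genotypes in rTreg cells 0 of 31 were called with edgeR, limma-voom or DESeq2, against 5.60% of all genes tested, and 14 had an unadjusted p under 0.05, against 28.5%. Of the 31, 1 passed the adjusted p as higher and 1 as lower, against 12.0% of all genes tested in either direction. Fyn, the kinase that SAP brings to the receptors, was higher (log2 fold change 0.26, adjusted p = 0.036). The ubiquitin ligase gene Cblb was lower (-0.38, adjusted p = 0.013), and both were under 1.5-fold. The list median was 0.026. In aTreg cells 1 of 31 was called, against 4.03% of all genes tested, the Src family kinase gene Fgr, with 56 and 52 counts in WT and 32 and 10 in cKO cells (log2 fold change -1.59, adjusted p = 0.0448; not called with DESeq2). The list median there was -0.026.

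Between subsets 4 of the 31 were called higher in aTreg cells in each genotype, against 9.50% of all genes tested in WT and 11.3% in cKO, and 0 were called lower. Ptpn22, a phosphatase of Src kinases, and Dok1, an adaptor downstream of SLAM receptors, were among them in both genotypes. Ptpn22 rose by 1.10 in WT and 1.11 in cKO cells on the log2 scale (adjusted p = 3.33e-05 and 2.2e-05), and Dok1 by 1.06 and 1.29 (adjusted p = 0.000192 and 5.38e-05). The Src family kinase gene Lyn had 1 and 2 counts in WT rTreg and 45 and 75 in WT aTreg cells, and 4 and 5 counts in cKO rTreg and 92 and 103 in cKO aTreg cells. Fgr was called in WT (2.91, adjusted p = 0.00183) and Malt1, which encodes a paracaspase of NF-κB signaling, in cKO cells (1.07, adjusted p = 2.12e-05). Prkcq, which encodes PKCθ, was lower in aTreg cells at less than 2-fold (-0.76, adjusted p = 8.65e-05 in WT and -0.62, adjusted p = 0.000147 in cKO). The list medians were 0.019 in WT and 0.0083 in cKO cells.

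Genes named for follicular and innate-like T cells, where SAP is known to act, were taken as a further list of 12, of which 10 were tested. Ascl2 and Zbtb16, a transcription factor gene of innate-like T cells, were not tested, and Zbtb16 had 0 to 5 counts. Prdm1 was kept on this list, though it encodes Blimp-1, a factor of effector Treg cells and not a follicular marker. In aTreg cells 9 of 10, Prdm1 among them, were called higher than in rTreg cells in each genotype, as Sh2d1a was. Of all genes tested, 9.50% were so called in WT and 11.3% in cKO. The median log2 fold change was 2.95 in WT, or 2.78 with Il21, which had 0 counts in both WT rTreg libraries, set at its lower bound of at least 5.22-fold higher, and 3.78 in cKO cells. Between genotypes in rTreg cells 2 of 10 were called, both lower, against 5.60% of all genes tested in either direction. Cxcr5, the follicular homing receptor, had 9.49 and 8.80 CPM in WT and 4.14 and 3.25 CPM in cKO rTreg cells (log2 fold change -1.32, adjusted p = 0.00176). Maf, a transcription factor of follicular T cells, had 32.5 and 39.8 CPM in WT and 18.3 and 20.2 CPM in cKO rTreg cells (-0.90, adjusted p = 0.00639). The list median there was -0.041. In aTreg cells Prdm1 was called higher in cKO (0.65, adjusted p = 0.0277), the others were not called, and the list median was 0.097. Cxcr5 was lower there (-0.58, adjusted p = 0.00821), just under the 1.5-fold threshold, and Icos higher (0.46, adjusted p = 0.0424), also under it.

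Within the family, levels over the 8 libraries (log2 CPM) followed each other most for Ly9 and Cd84 (Pearson r = 0.852) and for Slamf1 and Slamf6 (0.802), while Ly9 and Cd48 had r = -0.777. These values describe libraries that share groups, replicate number and sex. In each of the 4 groups replicate 2 was above replicate 1 for both Ly9 and Cd84. Over all genes tested, the patterns most like those of Slamf1 were Daam1 (r = 0.985) and Fam216a (0.980), and those most like Slamf6 were Ighg1 (0.980) and Spo11 (0.980). Ighg1, an immunoglobulin heavy chain gene of a family with similar copies, had 0 and 4 counts in WT rTreg and 82 and 203 in cKO rTreg cells, and 14 and 33 in WT aTreg and 133 and 72 in cKO aTreg cells. The genes most like Sh2d1a were Ttc39c (0.999) and the pseudogene Matr3-ps2 (0.998), whose reads may belong to its parent gene. Ttc39c had 0.461 to 1.01 CPM in the 4 rTreg libraries, 63.5 and 54.6 CPM in WT aTreg and 92.5 and 103.6 CPM in cKO aTreg cells. For Slamf7 they were Pafah1b3 (0.995) and Hspb1 (0.989), for Ly9 Myl12b (0.990) and Myl6 (0.986), for Cd84 the pseudogene Ap3s1-ps1 (0.985) and Zbtb45 (0.981), and for Cd48 Net1 (0.948) and Foxj1 (0.927).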

How the data were processed

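Paired-end reads from sorted cells were quality checked, trimmed and cleared of duplicates by the authors, who counted them on genes with HTSeq after alignment, with HISAT2 2.0.5 and mm10 named in the submitters' processing notes. Removal of duplicates can lower the count of abundant genes. The deposited counts are whole reads per Ensembl gene, without normalization. The deposited FPKM values scale them by library total and merged exon length, and were used for levels per length and as alternatives. Depth ranged from 6373170 to 15268623 counts; floors cover counting error only. Counts were tested with edgeR 4.0.16 in R 4.3.3 (TMM, filterByExpr with a minimum count of 10, glmQLFit and glmQLFTest) on 14540 genes, fitting all 8 libraries with 1 coefficient per group and blocking on replicate number. The pairing comes from shared replicate numbers and the study's statement of a paired analysis against a batch effect; deviations from group means correlated between same-numbered libraries at 0.355 or more. The spread between replicates of a group exceeded sampling noise (chi-square over degrees of freedom 15.5 to 23.8). Alternatives were no block, limma-voom (limma 3.58.1), DESeq2 1.42.0, median-of-ratios size factors, other filters, the libraries of a comparison alone, limma on log2 FPKM plus 1 or 0.1, and each library or replicate number left out. The edgeR procedure was run on simulated data for the genotype comparison in rTreg cells. These data held no replicate effect, so they do not test the replicate block. Members, lists and likeness rule (the 2 genes with the highest r) were chosen with earlier results of these data known. All 7 members were named in every comparison. List genes were named where called or, for Fyn, Cblb and Prkcq, after their values were seen. The latter also holds for Cxcr5 and Icos between genotypes in aTreg cells, for Zbtb16 and Ascl2, and for markers of other cells that were not called. Results for a few further genes of the lists are not reported here.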

Additional observations from a re-analysis of the deposited data

Results flagged for a closer look

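The genotype effect on Slamf1 differed between subsets by the interaction test, with an aTreg minus rTreg difference of -0.69 on the log2 scale (adjusted p = 0.0322, edgeR with Benjamini-Hochberg adjustment). Both replicate pairs showed the direction. The pass was lost without the replicate block and under the FPKM settings.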

How the results depend on the processing

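The calls of Slamf6 and Slamf1 between genotypes in rTreg cells held under all alternatives that gave a test, and no member reversed a called direction. Between genotypes in aTreg cells, 1 member (Slamf7) instead of 0 was called with no filter on low counts. Between subsets in WT cells 1 member was called on log2(FPKM + 1) and 1 on log2(FPKM + 0.1), because Slamf7 was left out by the filter at a mean of 1 FPKM. In cKO cells the count was likewise 1 there and 1 on unfiltered log2(FPKM + 1), where Slamf7 (0.68, adjusted p = 0.0387) stayed under 2-fold, and 1 without the replicate block (Slamf7, 2.24, adjusted p = 0.0574). For the difference of genotype effects, 0 members were called without the replicate block, 2 with DESeq2, 2 with no filter (Slamf6, -0.51, adjusted p = 0.00219) and 0 under the 3 FPKM settings (Slamf1, adjusted p = 0.157 to 0.249); the cause was not tested. With 1 library left out the count was 0 to 1, and the lone library of its group was assumed to vary like the others. Without the block, genes called in all went from 814 to 266 (rTreg), 586 to 77 (aTreg) and 48 to 0 (difference of effects); without it Ly9 in rTreg and Slamf6 in aTreg cells also lost their adjusted p under 0.05 between genotypes (0.264 and 0.147), and no other call with a fold threshold changed. Depth limits Slamf7, at 4 to 105 counts.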
